A study of Sus scrofa with 12 samples.

Results

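Hub anchors were 5-kb bins of the pig genome that were joined by H3K27ac-marked chromatin loops to 15 or more different partner bins. They were chosen on the loop lists themselves, as every bin with at least 15 distinct partners in the union of 4 BL-HiChIP libraries, so partner numbers are given below as a description and were not tested. Of 71411 loop anchors, 1461 were hubs (2.05%). The other anchors had far fewer partners, 10 to 14 for 3038 anchors, 5 to 9 for 12054 and 1 to 4 for 54858. Hubs made up the end of 26806 of the 122406 different loops (21.9%).

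H3K27ac is an acetyl mark on histone H3 that is found at active promoters and enhancers. Enhancers act on genes through loops that bring both into proximity in the nucleus, and a promoter or an enhancer may take part in many such loops. Genes of transcription factors and of signalling proteins often lie in wide regions with little else in them and are served by many distal enhancers. RNAs can also be held on chromatin, most of them near the gene that makes them.

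The samples were longissimus muscle of piglets of 2 breeds at an age of 2 weeks, male by the paper's methods. The breeds were Large White (LW), a commercial lean breed, and Meishan (MS), a local Chinese breed. BL-HiChIP, a proximity ligation through a bridge linker with an antibody against H3K27ac, and GRID-seq, a ligation of RNA to the DNA beside it, were each done on 2 libraries per breed. Whether replicate libraries came from different animals is not given in the labels, so the p-values below measure only the spread between these libraries, which may be technical. The tissue is a mixture of cell types, and fewer cells of a type cannot be told apart from less loop or RNA signal per cell. Of 12 skeletal muscle markers, 7 were among the RNAs listed in each GRID-seq library, with 1168940 and 1297532 RNA reads for LW and 868314 and 1034624 for MS. Of the fibroblast markers, COL1A1 and COL1A2 were listed with 5711 to 7710 reads. No marker of cardiac muscle, adipocytes, endothelium, immune cells or satellite cells was listed under its symbol. Markers were matched by gene symbol only, so a gene listed under an Ensembl identifier would be missed. The loop lists held 57028 and 43282 loops for LW (replicates 1 and 2, the order used throughout) and 45061 and 33353 loops for MS.

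The median hub had 18 partners in the union, and 8 and 9 partners in the LW libraries and 7 in each MS library. Partner numbers fell steeply, from 567 hubs with 20 or more to 112 with 30 or more, 36 with 40 or more and 15 with 50 or more. In single libraries far fewer anchors reached 15 partners, 99 and 174 for LW and 75 and 88 for MS. A hub was therefore mostly a sum over libraries, and the number of hubs depended on each of them. Without LW replicate 1, LW replicate 2, MS replicate 1 or MS replicate 2, there were 878, 873, 949 and 1075 hubs. Just inside the threshold were 274 anchors with 15 partners, and just outside it 307 anchors with 14. The median anchor of both kinds had 5 to 7 partners per library, and a gene end lay at 38.7% and 38.4% of them. Counting runs of neighbouring partner bins as 1 partner left 725 hubs, and the median hub had 14 such runs.

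**Figure D1:**
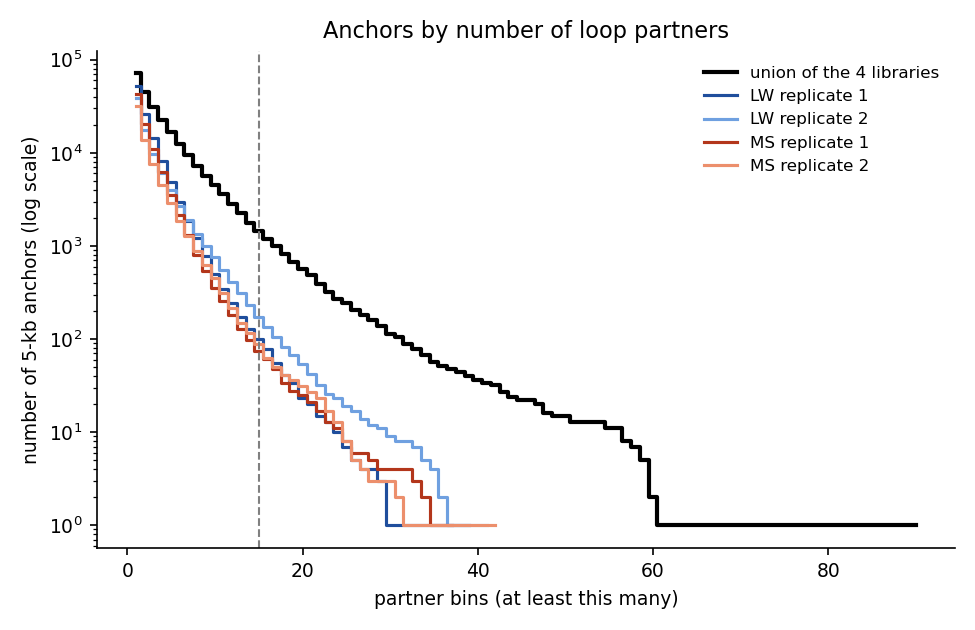
Number of 5-kb anchors (vertical axis, log scale) with at least the number of partner bins on the horizontal axis, for the union of the 4 libraries (black) and for each library. The dashed line marks 15 partners, which 1461 anchors reached in the union and 75 to 174 in a single library.

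All 1461 hubs had loops in both breeds. Every library had a partner at 1443 hubs, at 1454 hubs the same partner was called in both breeds, and 1000 hubs had at least 1 loop called in all 4 libraries. Anchors chosen for many partners have more pairs in which a shared call can occur, so these counts are a description. They were not set beside those of other anchors. When anchors with 15 or more partners were chosen in the LW libraries alone, 584 were found, and these had a median of 14 partners in the MS libraries. Of the 584 anchors, 282 also reached 15 partners in MS, and none was without a partner there. Anchors with 1 to 4 partners in LW had a median of 1 partner in MS and 40.8% of them had none. Chosen in the MS libraries alone, 366 anchors reached 15 partners, and 282 of them did so in LW. An anchor with many partners in one breed thus also had many in the libraries that were not used to choose it.

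Hubs lay at gene ends more often than other anchors did. An end of a RefSeq gene was inside or within 1 kb of 587 hubs (40.2%, 95% Wilson interval 37.7% to 42.7%, counting error only), against 27.2% of all anchors and 35.1% of anchors with 10 to 14 partners. Both gene ends were used because the gene table gives no strand. A further 611 hubs lay inside a gene and 263 between genes, and the nearest gene end was at a median of 28.6 kb from hubs that had none. Of the 874 hubs without a gene end, 838 looped to a bin with a gene end. Since hubs were chosen for many partners, each had many chances to reach a gene end, so this count is a description. The same count was not made for other anchors. The partners themselves were less often at gene ends, 21.03% for hubs and 31.4% for all anchors. The authors called loops between H3K27ac peaks and all bins. Whether hubs, their partners and other anchors differ in how often they hold a peak, and whether this bears on these shares, was not tested. In all, 560 of 19533 protein-coding genes had an end at a hub (2.87%), which was 4.57% of the coding genes at any anchor.

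The hub with the most partners was inside BCL6, a transcriptional repressor, at chr13:125395001-125400000 (Sscrofa11.1). It had 90 partners in the union, 39 and 41 for LW and 37 and 42 for MS. All 90 lay on the side of higher coordinates, at a median of 812.5 kb and up to 1715 kb away, where the farthest bin held an end of TP63. Its strongest loop ran over 1135 kb to an end of TPRG1 and was called in all 4 libraries, with −log10 FDR of 113 and 229 for LW and 112 and 216 for MS. The next bin, at an end of BCL6, was a hub of its own with 50 partners, and chr13:125415001-125420000 inside the non-coding gene LOC106508008 had 60. Farther along, 2 hubs inside LPP, a gene of a focal adhesion protein, had 59 and 56 partners. Both looped back to the BCL6 bin, the first over 495 kb in all 4 libraries and the second over 570 kb in all but MS replicate 1.

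The others of the 10 hubs with the most partners were at or inside 4 named genes, at 1 uncharacterized gene and between genes. NRP1, a receptor for semaphorins and VEGF, was at a hub with 59 partners (chr10:56425001-56430000), and this hub had 13 and 15 partners in LW and 34 and 30 in MS. The MS libraries were both above the LW libraries there. IRS1, the adaptor of the insulin receptor, was at a hub with 57 partners (chr15:128305001-128310000), 20 and 36 for LW and 17 and 23 for MS. JUN, a subunit of the AP-1 factor, was at a hub with 56 partners (chr6:153685001-153690000), 19 and 30 for LW and 21 and 25 for MS. At IRS1 and JUN the breeds overlapped, and in both breeds replicate 2 had more partners than replicate 1. A hub inside SOX6, a factor known for repressing slow-fibre genes (chr2:42450001-42455000), had 58 partners, 23 and 27 for LW and 23 and 21 for MS. The hub at LOC100513604 (chr7:92515001-92520000) had 58, 19 and 23 for LW and 27 and 22 for MS, and among its partners was an end of ZFP36L1, which codes for an mRNA decay factor. One of the leading hubs lay between genes, at chr1:4245001-4250000, with 59 partners, 25 and 33 for LW and 32 and 31 for MS. Its strongest loop reached an end of QKI, an RNA-binding protein of muscle and glia, over 635 kb in all 4 libraries.

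**Figure D2:**
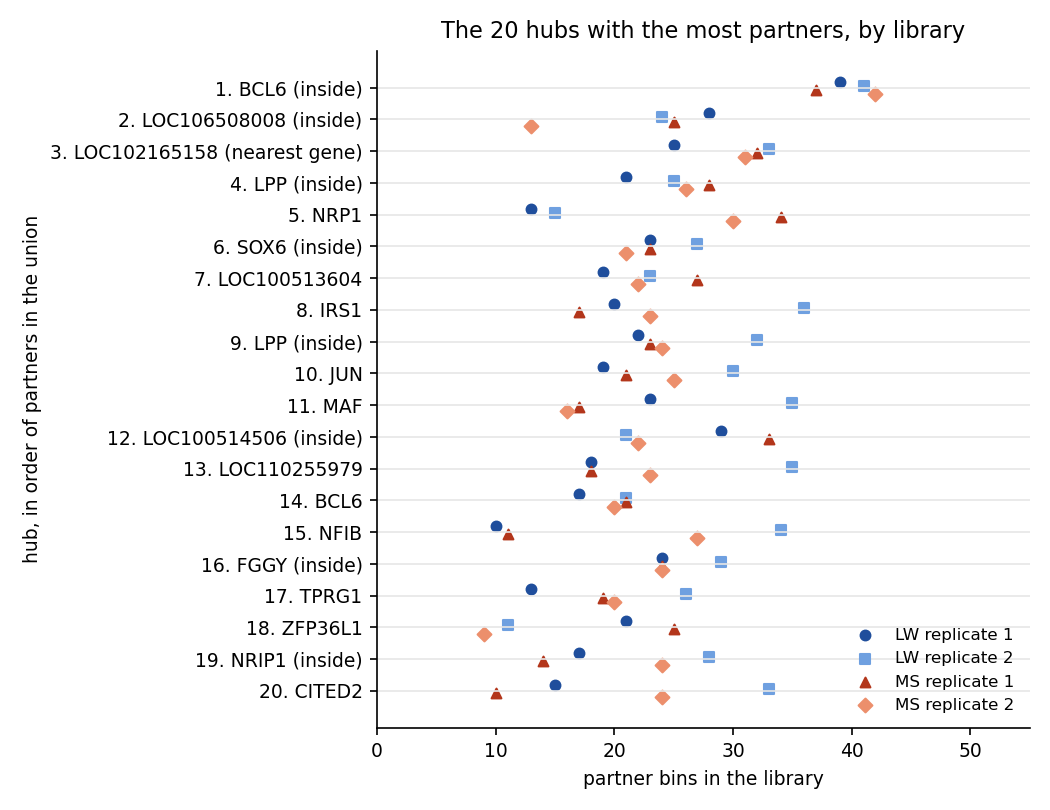
Partner bins per library (horizontal axis) for the 20 hubs with the most partners in the union (vertical axis, by rank). Each symbol is 1 library, and names in brackets say whether the hub lies inside the gene or is only near it. The BCL6 hub has 37 to 42 partners in every library, the 2 MS libraries exceed the 2 LW libraries at NRP1, and LW replicate 2 is the highest library at IRS1 and JUN.

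Several leading hubs had their partners on 1 side, while the NRP1 and LPP hubs had them on both. The JUN hub had all of its 56 partners at lower coordinates, the IRS1 hub 55 of 57, the LOC100513604 hub all 58, and the SOX6 hub all 58 at higher coordinates. The hub at MYC, a growth factor-induced transcription factor, had all 40 partners on the side of lower coordinates, the farthest of them at 1660 kb. Over all hubs the fuller side held a median of 75% of the partners, and 139 hubs (9.51%) had partners on 1 side only. The most distant partner of any hub was 1985 kb away, at the hub of KLF9, a glucocorticoid-induced Krüppel-like factor, which had only 18 partners (4 and 9 in LW, 7 and 8 in MS).

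**Figure D3:**
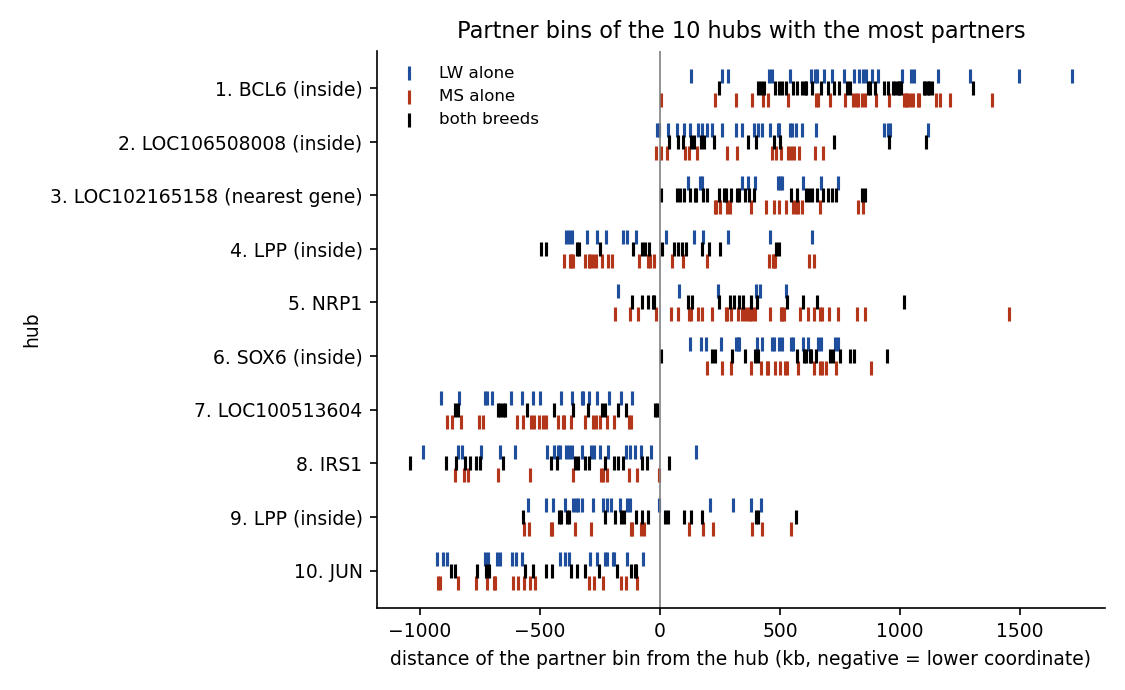
Partner bins of the 10 hubs with the most partners, by their distance from the hub in kb (horizontal axis). Ticks stand for bins called in LW alone (blue), in MS alone (red) or in both breeds (black). Ticks of the BCL6, SOX6, LOC100513604 and JUN hubs lie on 1 side of 0, and bins of all 3 kinds are interspersed along the same stretch.

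Partners of hubs were distant. The median distance of a hub and its partner was 125 kb, with quartiles of 55 and 250 kb, against a median of 50 kb over all anchors. By library it was 125 and 115 kb in LW and 125 and 110 kb in MS, and each library had 40 to 55 kb over all its anchors. Distances of 500 kb or more made up 7.54% of hub pairs and 2.62% of all pairs. Distances come from the same loops that chose the hubs and are a description.

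Loops were mostly called in few libraries. Of the 29632 pairs of hub and partner, 57.4% were called in 1 library, 23.3% in 2, 12.0% in 3 and 7.37% in all 4, against 69.1%, 19.5%, 7.57% and 3.78% over all anchors. Partners called in both breeds made up 34.5% of hub pairs, those in LW alone 37.9% and those in MS alone 27.7%. The LW lists also held more loops than the MS lists of the same replicate number. Shares over all anchors are not set beside these, so they are not shown to be particular to hubs. The share in both breeds was 60.1% when a partner 1 bin away was counted as the same. Between single libraries, the loops with a hub end that LW replicate 2 and MS replicate 2 had in common were 41.1% of the former and 51.4% of the latter. The LW replicates shared 41.2% and 37.0% of theirs and the MS replicates 38.0% and 38.4%. As a share of the loops of either library, this was 29.6% for the replicate 2 libraries of different breeds, 24.2% within LW, 23.6% within MS and 20.98% to 21.9% for the other 3 pairs of different breeds. Hubs where both replicate 2 libraries had more partners than both replicate 1 libraries numbered 373, and the reverse held for 209. The same counts were not made over all anchors, so they are not shown to be particular to hubs.

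Among the loops called in all 4 libraries, the hub at IRF2BP2, a transcriptional corepressor, had the most. It lay at chr14:56540001-56545000 and had 42 partners (LW 24 and 29, MS 22 and 23), of which 11 were called in every library, the farthest at 385 kb. A hub inside LOC110256735 in the same region had 10 such partners of 36. RBM20, which codes for a splicing factor of titin, held a hub (chr14:121250001-121255000) with 9 of 27 partners in every library, 16 and 18 for LW and 13 and 16 for MS. The hub inside FGGY, a gene of a carbohydrate kinase, had 8 of 48, and 1 of these was the JUN bin, 855 kb away, with −log10 FDR of 22.02 and 91.6 for LW and 29.5 and 74.3 for MS.

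Hubs looped to each other. Hub partners made up 19.1% of hub pairs and 12.1% of all pairs, and 2826 loops joined 2 hubs. Loops linked 1208 hubs into 283 groups, and 253 hubs were joined to no other hub. The largest group held 28 hubs over 1140 kb of chromosome 13, from BCL6 through LPP to TPRG1, with 213 loops among them. Both LPP hubs and the hub at TPRG1 (47 partners, 13 and 26 for LW and 19 and 20 for MS) had 23 hub partners each, the most of any hub. Groups of 23 hubs each lay at IRF2BP2 on chromosome 14, at THADA, ZFP36L2 and PKDCC on chromosome 3 and at ZFP36L1 on chromosome 7. Smaller groups held CPEB4 and DUSP1 (20 hubs), NFIB and MPDZ (19), NR3C1, the glucocorticoid receptor (19), JUN and FGGY (17) and PIK3R1, a regulatory subunit of PI3 kinase (16). By chromosome, hubs made up 3.50% of the anchors of chromosome 16 and 2.80% of those of chromosome 7, but 0.566% of those of chromosome X. The piglets were male, and whether sex bears on the share of chromosome X was not tested.

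Genes of growth and atrophy signalling stood at hubs most often among the 14 gene lists used, 9 of 22 list members with an anchor (40.9%), beside 4.57% of all coding genes with an anchor. These were IRS1, FOXO3, FOXO1, DDIT4, SMAD3, GADD45A, SESN1, SMAD7 and FBXO32, which act in insulin and TGF-beta signalling, in stress responses and in protein breakdown. The FOXO3 hub had 46 partners, 19 and 26 for LW and 16 and 23 for MS, and the FOXO1 hub had 36, 18 and 15 for LW and 20 and 8 for MS. DDIT4, an inhibitor of mTORC1, had 22 partners at its hub, 8 and 14 for LW and 11 and 12 for MS. Immediate early genes and Krüppel-like factors followed with 7 of 28, among them JUN, MYC, NR4A3 and KLF6. The NR4A3 hub had 29 partners, with 7 and 24 for LW and 5 and 15 for MS, so that replicate 2 stood above replicate 1 in each breed.

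Of the sarcomere genes, 9 of 47 were at hubs, all with 15 to 23 partners. They included TMOD4, a cap of thin filaments (8 and 14 partners in LW, 4 and 8 in MS), MYOZ1, a Z-disc protein (3 and 12 in LW, 7 and 9 in MS), and LDB3, another Z-disc protein (6 and 15 in LW, 5 and 12 in MS). TNNT3, the fast troponin T, was the only one of 12 skeletal muscle markers at a hub, although all 12 were at anchors. Of the calcium handling genes, 3 of 20 were at hubs. These were CASQ1, the fast-fibre calsequestrin, JPH1, which joins the membranes of the triad, and TRDN, which binds calsequestrin, with 15 to 18 partners. Glycolysis and glycogen genes had 4 of 27. These were SLC2A4, the insulin-responsive glucose transporter (10 and 12 partners in LW, 12 and 13 in MS), PPP1R3C, PRKAG3 and PYGM, the muscle glycogen phosphorylase. Muscle transcription factors had 4 of 21 with an anchor. Among them, VGLL2 had 25 partners, SIX4 22 and TEAD1 16.

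For lists of ribosomal protein genes and of oxidative metabolism the counts were low, as was the share of all coding genes with an anchor (4.57%). Of 35 cytosolic ribosomal protein genes with an anchor RPL3 alone was at a hub (2.86%), and none of 20 genes of oxidative phosphorylation or of 11 regulators of oxidative metabolism was. HOX genes had 4 of 29 and clock genes 2 of 18, BHLHE40 and CRY2. Lists of genes of other tissues had 1 of 19 for collagens and matrix (COL6A3) and 1 of 18 for adipocytes and lipids (CEBPB). The list for endothelium and blood had 1 of 17 (CD68). These shares were 5.26%, 5.56% and 5.88%. The lists are small, and these counts describe them without a test.

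Breed differences in the strength of looping were compared with a loop score, the sum of −log10 FDR over the loops of an anchor in a library. The score sums over the same loops that chose the hubs, so the counts are given as a description of hubs. With limma, a log2 fold change above 1.5 and an unadjusted p under 0.05, which were the thresholds of the study, 13 hubs were higher in LW and 8 in MS. Over all 71411 anchors 3.5% and 3.22% passed in these directions, beside 0.890% and 0.548% of hubs. Without normalization the split was 22 to 0, and after scaling to library totals 9 to 8. No hub passed a Benjamini-Hochberg adjusted p of 0.05 in limma, where the smallest was 0.635. At an unadjusted p under 0.05 there were 21 hubs, beside 6.72% of all anchors. The 21 hubs had 15 to 22 partners, so none of the leading hubs was among them. A single hub compared alone, with 2 libraries against 2, could not reach an exact permutation p below 0.333.

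Hubs past this threshold and higher in LW included a bin inside MAF, a transcription factor gene, at chr6:8765001-8770000. It had 12 and 11 partners in LW and 3 and 4 in MS, with loop scores of 119 and 266 for LW and 20.2 and 23.1 for MS. Its strongest loop ran 300 kb to an end of MAF and was called in both LW libraries and in MS replicate 2, with −log10 FDR of 38.1, 81.8 and 7.88. The loop scores of the breeds did not overlap (log2 fold change 2.75, SE 0.98). An end of PDK4, a kinase that inhibits pyruvate dehydrogenase, was at a hub (chr9:75255001-75260000) with 6 and 8 partners in LW and 3 and 0 in MS, and loop scores of 63.8 and 89.9 against 21.8 and 0. RAB31, a small GTPase of vesicle transport, held a hub with 10 and 7 partners in LW and 1 and 0 in MS. Hubs at LOC102163610 and inside LOC102158243 completed the 5 of smallest p. Of their 15 to 17 partners, 12 to 15 were called in LW alone, so these bins reached the hub threshold through the breed in which they were higher, and their differences are a description with no test. Each of the 5 kept its direction but lost the threshold when a library was left out. This was LW replicate 2 for MAF, where the log2 fold change was then 2.43, and LW replicate 1 for the other 4, where it was 3.66 at LOC102163610, 3.08 at RAB31, 3.91 at PDK4 and 3.99 at LOC102158243. With all libraries these 4 had 3.09 to 3.52. The threshold was also lost without MS replicate 2 for RAB31 (2.09) and PDK4 (1.39) and without MS replicate 1 for LOC102158243 (1.49).

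Higher in MS was the hub at LOC110255705, an uncharacterized gene (chr10:56765001-56770000), with 2 and 4 partners in LW and 9 in each MS library, and loop scores of 6.66 and 16.4 against 32.0 and 122 (log2 fold change -2.80, SE 1.07). Its strongest loop ran 340 kb to the NRP1 hub and was called in MS replicate 2. The strongest loop of the NRP1 hub ran 345 kb to the next bin, also at LOC110255705, and was called in both LW libraries and MS replicate 1. The NRP1 hub itself did not pass the threshold (log2 fold change -1.77, SE 0.99). TIMP3, an inhibitor of matrix metalloproteinases, was at a hub with 3 and 5 partners in LW and 6 and 8 in MS, and ZNF622 at one with 3 and 2 against 8 and 8. A pair of bins between genes on chromosome 9, at chr9:55080001-55085000 and chr9:55090001-55095000, had 5 and 1 against 11 and 6 partners, and 1 and 2 against 6 and 7. The first of them looped to an end of ETS1, a transcription factor gene. Of the 15 to 18 partners of these 5 hubs, 9 to 12 were called in MS alone, and they are likewise given with no test. Each of the 5 kept its direction but lost the threshold without MS replicate 1, without MS replicate 2 and without normalization. Their log2 fold changes lay between -4.04 and -1.37 with a library left out. LOC110255705 and the first chromosome 9 bin also lost it without LW replicate 1 (log2 fold change -2.11 and -4.04), and ZNF622 and that bin without LW replicate 2 (-2.03 and -1.37). At a pseudocount of 0.1 all 10 of these LW and MS hubs lost the threshold, and PDK4 did so without normalization and with total scaling, LOC102158243 and the first chromosome 9 bin with total scaling.

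Both loop scores of LW were above both of MS at 392 hubs (26.8%, against 18.4% of all anchors), and the reverse held at 90 hubs (6.16%, against 6.43%). Partner numbers were likewise compared as deposited. Both LW libraries had more partners than both MS libraries at 351 hubs (24.0%), against 12.3% of all anchors, and the reverse held at 85 hubs (5.82%), against 4% of all anchors. The LW libraries also held more loops. Divided by the loops of the library, LW was above MS at 156 hubs (10.7%, against 13% of all anchors) and MS above LW at 223 (15.3%, against 9.55%), so the direction of this count depends on the scaling.

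RNAs were found on hubs more often than on all anchors in each GRID-seq library. A listed RNA lay on 57.6% and 73.8% of hubs for LW and on 80.8% and 86.2% for MS. Over all anchors these shares were 40.8%, 53.0%, 54.6% and 63.4%, and over anchors with 10 to 14 partners 55.04%, 69.5%, 71.7% and 78.8%. Of 1461 hubs, 1417 had an RNA in at least 1 library, beside 61629 of the 71411 anchors, 649 in all 4 and 44 in none. Local RNAs, from a gene within 10 kb, were on 16.4% and 21.4% of hubs in LW and 15.5% and 19.2% in MS, against 6.07%, 7.97%, 5.59% and 7.39% of all anchors. RNAs from elsewhere on the chromosome were on 32.7% and 45.0% of hubs in LW and 35.2% and 45.5% in MS, against 21.7%, 30.8%, 18.3% and 26.3% of all anchors. RNAs from other chromosomes were on 30.5% and 43.7% of hubs in LW and 69.3% and 71.0% for MS. On anchors with 10 to 14 partners this class had nearly the same shares in LW (30.5% and 42.8%) and lower ones in MS (61.0% and 64.5%). Both MS libraries were above both LW libraries in this last class, on hubs as on all anchors (22.5% and 31.2% in LW, 46.1% and 51.9% in MS). By signal, local RNAs made up 85.6% to 90.3% of the sum on hubs and 80.7% to 86.9% on all anchors, and RNAs from other chromosomes 0.274% to 0.751% on hubs and 0.481% to 1.08% on all anchors. Hubs at gene ends, inside genes and between genes had no constant order. An RNA was on 57.8%, 56.6% and 59.3% of them in LW replicate 1, on 71.9%, 76.6% and 71.5% in LW replicate 2, on 83.6%, 79.7% and 76.8% in MS replicate 1 and on 87.2%, 85.8% and 84.8% in MS replicate 2.

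**Figure D4:**
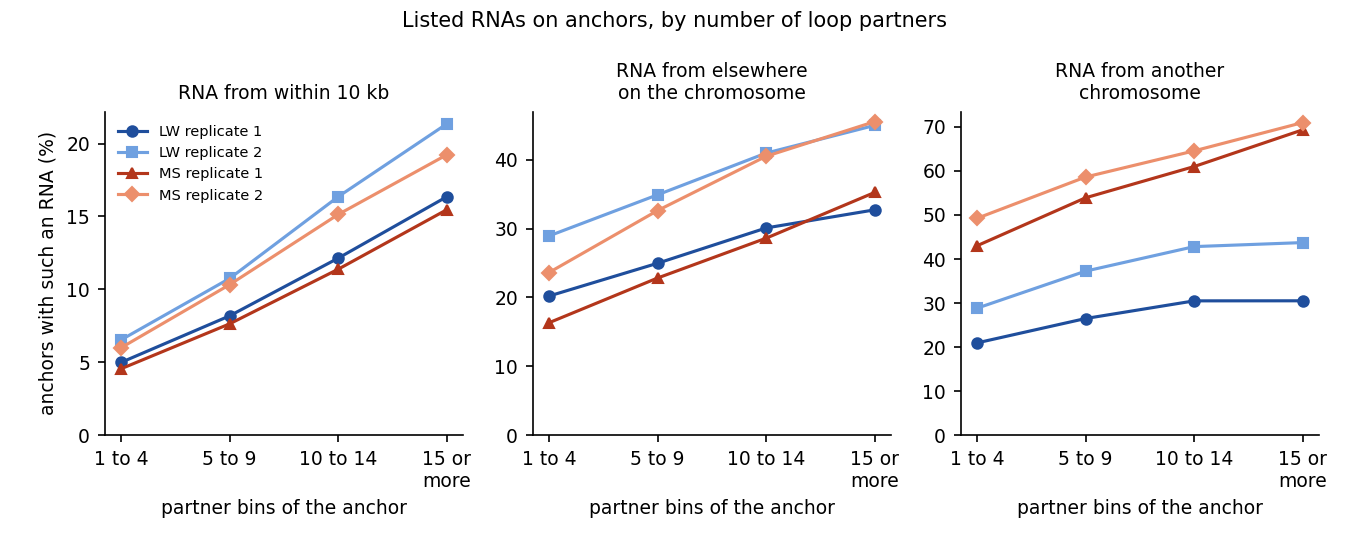
Share of anchors with a listed RNA (vertical axes, percent, each with its own scale) by the number of partner bins of the anchor, for RNAs from within 10 kb, from elsewhere on the chromosome and from other chromosomes. Lines are libraries. Local RNAs rise from 4.56% to 6.54% of anchors with 1 to 4 partners to 15.5% to 21.4% of hubs, and RNAs of other chromosomes are on more anchors in MS (red) than in LW (blue) in every class.

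A few RNAs covered many hubs. The RNA listed as ENSSSCG00000048037, from chromosome 3, was on 168 and 313 hubs in LW and on 553 and 293 in MS, and the breeds overlapped. This was 11.5% and 21.4% of hubs in LW and 37.9% and 20.1% in MS, beside 8.67%, 15.7%, 21.6% and 20.9% of all anchors, so that in MS replicate 2 hubs were not above all anchors. The RNA of TTN, the giant sarcomere protein titin, was on 152 and 181 hubs in LW and 290 and 340 in MS, although it had more RNA reads in LW (914086 and 1016278) than in MS (697633 and 830738). TTN RNA thus lay on 10.4%, 12.4%, 19.8% and 23.3% of hubs, beside 8.15%, 9.22%, 15.5% and 12.8% of all anchors. ENSSSCG00000048856 was on 56 and 96 hubs in LW and 200 and 360 in MS, which was 3.83%, 6.57%, 13.7% and 24.6% of hubs, beside 2.68%, 4.02%, 6.49% and 11.8% of all anchors. ENSSSCG00000044834 was on 60 and 77 hubs for LW and 89 and 90 for MS, 4.11% to 6.16% of hubs beside 3.33% to 4.59% of all anchors. For TTN, ENSSSCG00000048856 and ENSSSCG00000044834 both MS libraries were above both LW libraries.

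The hub with the most different RNAs lay on chromosome 9. This hub inside C2CD3, beside UCP3, a mitochondrial carrier of muscle, had 16 different RNAs over the libraries, 4 and 5 for LW and 7 and 6 for MS, and the UCP3 RNA was on it in every library with a signal of 1074 and 1143 for LW and 1459 and 1318 for MS. The signal is relative to the reads of the RNA itself. Next were a hub near LOC396711 on chromosome 12 with 15 RNAs, both bins at BCL6 with 14, and a hub at LOC110256752 with 14. RNAs were counted by name and position. An unannotated transcript can have another name and end in another library, as at a locus on chromosome 6 in the MS libraries. Such a transcript may be counted more than once, so these numbers may be too high and their order is not certain. On the C2CD3 hub the largest signals were those of unannotated transcripts, each listed under its name in a single library. On the BCL6 hub the transcript ENSSSCG00000051257, which lies beside BCL6, had a signal of 9949 and 9401 for LW and 13930 and 14322 for MS, and BCL6 itself 1971 and 2070 for LW and 3593 and 3179 for MS.

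The RNA of a gene with an end at a partner bin was seen on some hubs. The hub between genes on chromosome 1 that looped to QKI carried the QKI RNA in every library, with a signal of 189 and 438 for LW and 452 and 392 for MS. In each library 10 hubs carried this RNA. On the hub at LOC100513604 the ZFP36L1 RNA had a signal of 1343 and 796 in MS and was not listed there in LW, although ZFP36L1 was among the RNAs of all 4 libraries. ZFP36L1 is near this hub, with its end at a partner bin 20 kb away. The hub inside MAF that was past the loop threshold carried the MAF RNA in LW, at 390 and 979, and not in MS, where MAF RNA was listed at other bins.

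RNAs made at hubs were followed over their chromosome. A local RNA was on 239 and 312 hubs for LW and on 226 and 281 for MS. At 200 to 500 kb from the gene of the RNA, partner bins of the hub carried that RNA in 44.7% and 49.0% of cases in LW and in 42.7% and 49.2% in MS. Anchors at this distance that were not partners carried it in 45.0% and 50.8% of cases in LW and in 35.3% and 41.1% in MS. At 500 kb and more the shares were 20.7% and 22.7% for partners and 18.0% and 23.1% for other anchors in LW, and 21.3% and 27.2% against 13.8% and 16.7% in MS. Partner bins were thus above other anchors in both MS libraries from 200 kb on, and in the LW libraries the gap was small and of either sign. At 100 to 200 kb partners were below other anchors in every library (50.7% against 56.9% and 55.5% against 61.3% for LW, 46.1% against 47.4% and 50.3% against 51.2% for MS). In MS, partners that were called in LW alone carried the RNA nearly as often at 200 to 500 kb (41.6% and 48.8%) as those called in MS (43.4% and 49.4%). Bins with no loop at all carried it less often from 200 kb on, 36.8% and 41.9% in LW and 20.4% and 23.5% in MS at 200 to 500 kb. Nearer than 200 kb such bins carried it more often than partners in both LW libraries. At 10 to 50 kb the LW shares were 77.2% and 81.7% against 67.5% and 72.5% for partners. In MS they were 66.0% and 70.6% against 66.4% and 68.9%. Bins of one hub share an RNA and a library, so these shares are a description, and distances within a range were not matched.

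**Figure D5:**
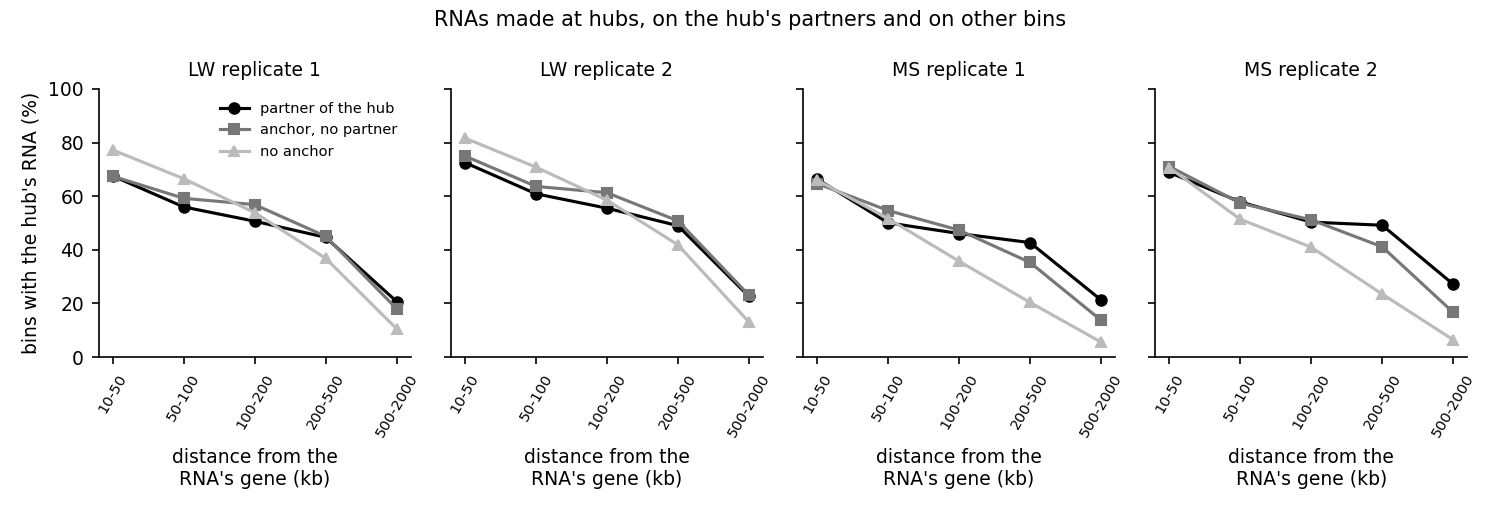
Share of 5-kb bins that carry the RNA of a gene at a hub (vertical axis, percent) by distance from that gene (horizontal axis, kb), for partners of the hub, other loop anchors and bins that are no anchor, in each library. At 200 to 500 kb partners (black circles) lie above other anchors (grey squares) in both MS libraries, 42.7% against 35.3% and 49.2% against 41.1%, and in LW they do not.

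Summed RNA signal of each hub was compared between the breeds with limma, over 61629 anchors with a listed RNA, of which 1417 were hubs. At a log2 fold change above 2 and an unadjusted p under 0.05, 68 hubs were higher in LW (4.80%, beside 6.49% of all anchors) and 185 in MS (13.1%, beside 7.61% of all anchors). Anchors with 10 to 14 partners gave 6.20% and 11.2%. No hub passed a Benjamini-Hochberg adjusted p of 0.05 in limma (smallest 0.0624), and 253 hubs had an unadjusted p under 0.05, beside 14.1% of all anchors. Without normalization 45 hubs passed the adjusted p, and after scaling to library totals 44. As deposited, both MS libraries were above both LW libraries at 478 hubs (33.7%, against 21.9% of all anchors) and the reverse held at 182 (12.8%, against 14.5%).

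Some RNAs on these hubs were listed in 1 breed only. An RNA that is missing from the list of a library has no value there, which is not a measured absence. Of the 185 hubs higher in MS, 70 carried an RNA listed in both MS libraries and in no LW library, and of the 68 higher in LW, 40 carried one listed in both LW libraries only. RNAs were matched by name here, and the names of unannotated RNAs need not match between libraries, so both counts are approximate. How many of the other hubs or of all anchors carried such an RNA was not counted, so these numbers have no comparison. When only the 307 annotated RNAs listed in all 4 libraries were used, an alternative added after the data were seen, 28 hubs were higher in LW (2.00%, beside 4.95% of all anchors) and 156 in MS (11.13%, beside 6.15%).

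The 5 hubs of smallest p that were higher in MS were of this kind, with a local RNA at high signal in both MS libraries and nothing listed in LW. They were at GADD45G, a stress sensor (32247 and 24348 for its own RNA in MS replicates 1 and 2), RHOB, a small GTPase (24916 and 32868), CYR61, a matricellular protein also named CCN1 (18906 and 16854), ANKRD1, a stretch-responsive sarcomere protein (17198 and 15178), and PPP1R3C, which targets a phosphatase to glycogen (12912 and 18574). With no value in LW, these hubs have no measured difference between the breeds, and their place among the smallest p comes from a 0 for each missing RNA. RNA reads of these genes were few, 478 to 850 in MS replicate 1 and 560 to 1026 in MS replicate 2, and none of them was on the LW lists. None of these 5 hubs passed the loop threshold. GADD45G had 18 partners in each LW library and 9 and 13 in MS, PPP1R3C 10 and 12 in each breed, RHOB 8 and 11 in LW and 10 in each MS library, CYR61 8 and 10 in LW and 6 in each MS library, and ANKRD1 7 and 5 for LW and 8 and 5 for MS. At GADD45G and CYR61 both LW libraries had more partners than both MS libraries. VGLL2 RNA, of a cofactor of TEAD factors, was likewise on its hub in MS alone (10557 and 10713), with 15 partners in each LW library and 9 and 16 for MS.

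Higher in LW was the hub at PRKAG3, the muscle-specific regulatory subunit of the kinase AMPK (chr15:120865001-120870000), where PRKAG3 RNA had a signal of 7462 and 10943 in LW and was not listed in MS, so that here too no difference was measured. This hub had 8 and 7 partners in LW and 5 and 6 in MS. A pair of hubs inside LOC110255633 on chromosome 10 looped to an end of DUSP10, a phosphatase of stress kinases, in all 4 libraries, over 160 and 145 kb. They carried the DUSP10 RNA at 674 and 650 and at 393 and 684 in LW and not in MS. Here DUSP10 was listed in MS replicate 2 with 4105 reads and in LW with 8906 and 9902. The hub inside NREP carried the NREP RNA (121 and 312) and the hub at RBMS1 the RNA of ITGB6 (234 and 289), both in LW only and with neither RNA on the MS lists. TRDN RNA, with 67305 and 73574 reads in LW, was on 14 and 17 hubs there and was not on the MS lists.

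Other hub genes carried their own RNA in both breeds. CEBPB, an adipocyte and stress factor, had a signal of 28507 and 24762 for LW and 26727 and 21090 for MS, DDIT4 18343 and 22710 for LW and 25811 and 22388 for MS, and PDK4 5449 and 4312 for LW and 4600 and 4458 for MS. The breeds overlapped at each of these. CASQ1 had 21996 and 19213 for LW and 11744 and 9990 for MS, and PYGM 9176 and 7240 for LW and 5488 and 4091 for MS, with both LW libraries above both MS libraries. The unnamed RNA ENSSSCG00000031912, which overlaps the JUN hub, had 38199 and 32725 for LW and 31121 and 23145 for MS.

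RNAs of other leading hub genes were listed in some libraries only. IRS1 RNA was on its hub in LW replicate 2 and both MS libraries (3262, 3393 and 2598), and so were KLF6 RNA (6394, 7164 and 9248) and SLC2A4 RNA (12052, 8305 and 9776). SOX6 RNA was on the SOX6 hub in LW replicate 2 alone (831) and MYC RNA on the MYC hub in MS replicate 1 alone (29635). NR4A3 RNA was on its hub in both MS libraries (1979 and 1435). TRDN RNA was on its own hub in both LW libraries (620 and 580). Such an RNA gives no measured difference between breeds, since its level in the other libraries is not known.

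Of the 21 hubs past the loop threshold, 6 also passed that of the RNA signal, beside 253 of all 1417 hubs compared. In 3 of the 6 the same breed was higher in both, LW at the MAF hub and MS at the hubs at LOC110255705 and FZD4, a Wnt receptor. The FZD4 hub had 0 and 10 partners in LW and 7 and 8 in MS, so its breeds overlapped. The hubs at NR3C1, LOC110260459 and LOC106504493 had more looping in LW and more RNA signal in MS.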

How the data were processed

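Used were the deposited lists of 4 H3K27ac BL-HiChIP and 4 GRID-seq libraries, 2 per breed and assay, grouped by their labels. For BL-HiChIP the authors trimmed linkers with ChIA-PET2, mapped to Sscrofa11.1 with BWA-MEM, deduplicated with Pairtools and ran FitHiChIP per library, between peaks and all 5-kb bins. The value the authors deposited for a loop was read as an adjusted p-value (FDR), since the lists have no header and all values lie under 0.01. It is 0 for 2 loops, which were set to the smallest other value. Contact counts and read depths were not used here, so the depth behind a loop is unknown. For GRID-seq the authors split reads at the linker, mapped with Bowtie2 (2.2.5 in the submitters' processing notes), selected chromatin-enriched RNAs and removed background. In the deposited lists, the whole number of an RNA was taken as the count of its reads, and the value on a 1-kb bin, at least 0.02, as a background-corrected signal relative to that RNA. Listed RNAs summed to 8181721 and 9943666 reads (LW) and 7172517 and 9381797 (MS), which limits what a missing RNA shows.

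Loops were merged by both bins. Genes came from RefSeq (Sscrofa11.1, 28210 gene rows) without strand. An RNA was local within 10 kb of its gene. Loop scores and RNA signals of all anchors were quantile-normalized and compared on the log2(value + 1) scale, which understates changes of low values, by limma 3.58.1 in R 4.3.3 with Benjamini-Hochberg adjustment over all anchors. This step was tested on simulated data. Python 3.11.15, pandas 2.3.3, numpy 2.4.6, scipy 1.17.1, networkx 3.6.1 and matplotlib 3.10.9 did the rest. Members, gene lists and tests were chosen with earlier results of these data known. The text names the 10 hubs with the most partners, up to 4 genes per list, and for each test and direction 5 hubs past the threshold with breeds that did not overlap, by p. It also names the 5 hubs with the most RNAs, the 5 with the most loops in all libraries, the 3 with the most hub partners, the hub with the farthest partner and the 5 RNAs on the most hubs. Others were named after their values were seen, and a few items are not reported here. Alternatives varied the hub threshold, FDR, neighbouring bins, gene windows, RNA classes, normalization, pseudocount, low values, a replicate block and single libraries.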

Additional observations from a re-analysis of the deposited data

How the results depend on the processing

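The number of hubs was 1461 and became 111 with loops called in 2 or more libraries, 648 at an FDR of at most 0.001, 725 with runs of neighbouring partner bins as 1 partner, 567 at a threshold of 20 partners and 4499 at 10. It was 873 to 1075 with a library left out, more than 1.5 times lower without LW replicate 1, LW replicate 2 or MS replicate 1 (878, 873 and 949). The median distance of 125 kb was 95 kb at 10 partners, 160 kb at 20, 135 kb at the stricter FDR and 135 to 145 kb with a library left out. The share of hubs with a gene end (40.2%) was 36.8% at 10 partners, 44.4% at 20, 44.0% at the stricter FDR, 35.2% with the end inside the anchor, 49.3% within 5 kb, 32.9% for coding genes and 41.0% to 45.1% with a library left out. Partners in both breeds (34.5%) were 60.1% with neighbouring bins as the same and 24.6% to 33.0% with a library left out. The share of hubs with a listed RNA in any library was 93.0% to 96.7% with a library left out. It moved by less than the spread between the shares of single libraries in all 10 alternatives run. This share is near its ceiling and the spread is that of another quantity, so stability is not shown by it. For loop scores, the 21 hubs past the threshold became 0 at a pseudocount of 0.1 (0 for LW and 0 for MS), and the split was 22 to 0 without normalization. They were 21 to 48 with a library left out (LW 13 to 35, MS 7 to 20), highest for LW without MS replicate 2 (35) and MS replicate 1 (33) and for MS without LW replicate 1 (20). Without normalization or with total scaling the median log2 difference of all anchors was 0.59 or 0.30, in place of 0.04. For RNA signals, the 253 hubs became 5 when the number of different RNAs replaced the signal (0 for LW and 5 for MS), the 68 for LW became 28 with annotated RNAs listed in all libraries, and with a library left out there were 206 to 271 (LW 56 to 93, MS 135 to 178). By limma with Benjamini-Hochberg adjustment, 18 hubs passed an adjusted p of 0.05 for loop scores without LW replicate 1, and 186 and 195 hubs for RNA signals without MS replicate 1 and 2, where the lone library is assumed to vary like the others. With the replicate block 39 hubs passed the loop threshold (LW 25, MS 14) and 217 the RNA threshold (LW 72, MS 145), and 0 hubs an adjusted p of 0.05. Samples of 1 number share only that number by the labels, and their deviations correlated at 0.237 for loop scores and 0.0234 for RNA signals. The loop split turned from 13 for LW and 8 for MS to 13 and 20 without LW replicate 1, and the median log2 difference of hubs from 0.04 to -0.08 with total scaling, as the count of hubs with more partners turned when divided by the loops of the library. The 10 named hubs of the RNA comparison carry RNAs that have no value on them in the other breed, so that alternatives of scaling or left-out libraries do not bear on them. The log2 differences of the 10 named hubs of the loop comparison changed sign in none of the 9 alternatives run for them. The cause of the changes was not tested.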

Other observations

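Some hubs looped to many genes. The median hub had 2 protein-coding genes at its partner bins and the highest number was 35. The hub at SLC2A4 on chromosome 12 reached 27 coding genes and the hub at CD68 on the same chromosome 24. By contrast, the hubs at MYC and FOXO1, with 40 and 36 partners, had no coding gene end at a partner bin, and the BCL6 hub with its 90 partners had 4. A group of 13 hubs with 62 loops among them lay over 890 kb of chromosome 7 in a cluster of histone genes (HIST1H2BD, HIST1H3E), and groups of 13 hubs each lay at NFIA and at RREB1, both transcription factor genes. The hub at HOXD8 (13 and 18 partners for LW, 16 and 10 for MS) reached 385 kb at the median.

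OPN4 and LDB3 overlap and had identical signals on the LDB3 hub, so that their RNAs cannot be told apart. On the TNNT3 hub the RNA of PRR33, a gene inside the listed span of TNNT3, had 19445 and 13244 for LW and 24023 and 18682 for MS, and TNNT3 itself 1655 and 1405 for LW and 1295 and 968 for MS. These signals are relative to the reads of each RNA and do not compare amounts. PRR33 had 718 and 727 reads in LW and 466 and 571 in MS. TNNT3 had 33453 and 36877 reads in LW and 29704 and 35665 in MS.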
